A study of Mus musculus with 10 samples.

Results

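The machinery that releases neurotransmitter from synaptic vesicles was compared between B6 and D2 mice in the nucleus accumbens (NAc), a part of the ventral striatum. It is represented here by 47 genes that were listed for their function, matched by symbol to the Ensembl identifiers of the count table, and all 47 were among its 29883 genes. The samples were 5 ethanol-naive male C57BL/6J (B6) mice and 5 ethanol-naive male DBA/2J (D2) mice of 9 weeks of age, each from a single inbred strain, with 1 poly-A library of micro-dissected NAc per mouse. No transgene, drug or other treatment separated the groups, so that the strain was the only factor of the design. Levels are given as read counts scaled to the library total (CPM) after TMM normalization, which scales the libraries to one another, and the values of single mice are listed in the order of replicates 1 to 5. Differences are D2 relative to B6 on the log2 scale, from edgeR's quasi-likelihood test, called log2 fold changes, and a gene was called when its Benjamini-Hochberg adjusted p over all genes was below 0.05. The 10 libraries held between 96977262 and 116776714 counted reads, and every release gene had at least 924 reads in every mouse.

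At a nerve terminal, vesicles filled with transmitter are held near the membrane by a protein scaffold, the active zone, in which Bassoon, Piccolo, RIM and ERC proteins bind one another and calcium channels. Munc13 proteins prime the vesicles by helping syntaxin and SNAP-25 on the cell membrane to join with synaptobrevin on the vesicle into a SNARE complex. Complexins hold this complex, and synaptotagmins on the vesicle sense the calcium that enters with an action potential and trigger fusion. The membrane is then taken back by clathrin-mediated endocytosis, for which dynamin cuts the vesicle off. Most cells of the NAc are GABA-releasing projection neurons, while the glutamate terminals there come from the cortex and other regions, whose cell bodies and most of whose mRNA lie elsewhere.

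B6 replicates 3 and 5 stood apart from the other libraries. The mean log2 level of 12 markers of cortical projection neurons lay at 4.93 and 4.92 in B6 replicates 3 and 5, at 2.92, 2.80 and 3.42 in B6 replicates 1, 2 and 4, and between 3.61 and 4.44 in the D2 mice. The vesicular glutamate transporter of cortical neurons, Slc17a7, had 63.0, 57.2, 774, 130.0 and 791 CPM in B6 and 174, 448, 493, 384 and 254 CPM in D2. In both measures B6 replicates 3 and 5 were the highest of the 10 libraries and the other B6 mice the lowest. Replicates 3 and 5 were also the closest pair of libraries within a strain, with a mean chi-square of 4.89 per gene where every other pair had at least 17.5 and sampling noise alone gives about 1, and they were kept as separate mice. The strain difference of this marker level did not pass the test (two-sided exact permutation test over mice, n = 5 each, adjusted p = 0.625 over 10 lists). Markers of striatal projection neurons were present at a mean log2 level between 8.63 and 8.91 in B6 and between 8.38 and 8.62 in D2 (list level, exact permutation test, adjusted p = 0.0265). By gene, 9 of 12 were called lower in D2 (background 9.83% of all genes). The level of 9 interneuron markers lay between 4.72 and 4.93 in B6 and between 4.99 and 5.19 in D2 (exact permutation test, adjusted p = 0.0265). Of these 9 markers, 0 was called in either direction (background 18.3% of all genes). In such bulk tissue, fewer cells of a type and less RNA per cell cannot be told apart, and the part of these cell types in the results below was not tested.

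Levels between genes were compared per kb of annotated exon, on a scale of CPM per kb. The highest level of the 47 genes was that of Cplx2, a complexin, with 329 ± 23.99 CPM per kb in B6 and 304 ± 18.9 in D2 (SD, n = 5). Among the SNARE proteins, the synaptobrevin Vamp2 led with 219.5 ± 23.6 and 227 ± 6.16 CPM per kb, followed by Snap25 with 136 ± 34.1 and 138 ± 6.15. Of the SNARE genes, Vamp1 was the lowest at 9.02 ± 1.32 and 9.59 ± 2.17 CPM per kb. The vesicle proteins were led by Syp, which encodes the abundant membrane protein synaptophysin, with 142 ± 19.0 and 148 ± 4.68, and by the small GTPase gene Rab3a with 139.6 ± 14.4 and 145 ± 3.87. Syp and Rab3a did not differ beyond their spread on this scale. Dnm1, the dynamin of nerve terminals, had 117.1 ± 12.5 and 125 ± 3.51 CPM per kb. The large scaffold genes were lower, with 28.3 ± 6.70 and 27.4 ± 2.7 CPM per kb for Bsn, not apart from Unc13a beyond the spread, and 19.1 ± 2.09 and 20.03 ± 1.496 for Pclo. Syn3 was the lowest of the 47 on this scale at 1.08 ± 0.129 and 1.11 ± 0.0573 CPM per kb. With the length of the longest transcript in place of all exons, the lowest was Syt10, and Unc13a was above Bsn. Vamp2 and Snap25 were then close, at 284.3 and 280.6 CPM per kb over the 10 mice. Cplx2 and Syp were also close, at 316.5 and 309.2, and Rab3a was below Syp, at 186.9.

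**Figure D1:**
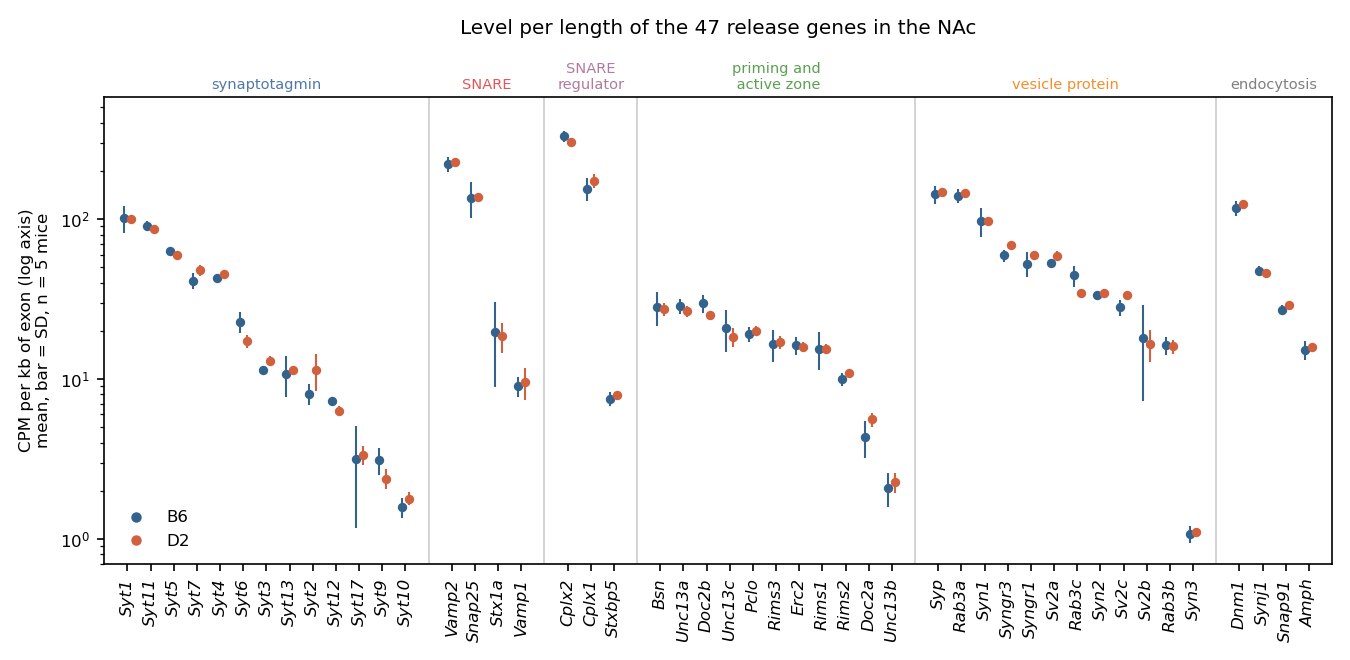
Level per length (CPM per kb of annotated exon, log axis) of the 47 genes, grouped by role and ordered by level, with points at the strain mean and bars of 1 SD over 5 mice. The strains lie close together for most genes, and the longest bars belong to B6 for Syt17, Stx1a and Sv2b.

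The strain difference was tested for each gene over the 10 mice. Of the 47 genes, 7 were called (14.9%), where 18.3% of all genes were called and 22.4% of the 9997 genes with a mean level at least that of the lowest of the 47. Of these, 4 were higher in D2 (background 8.50% of all genes), namely Syt2, Syt3, Sv2c and Syngr3, and 3 were lower (background 9.83%), namely Syt6, Syt12 and Rab3c. Scaling by total counts gave 8 higher and 3 lower. The median log2 fold change of the 47 genes was 0.05 and that of all genes 0.00. The log2 fold change of 37 of the 47 genes was within 0.2 of 0 in either direction, with standard errors between 0.0357 and 0.338 (median 0.0791). An unadjusted p below 0.05 was found for 15 of the 47 genes, where it was found for 29.4% of all genes. The normalized values of the strains did not overlap for 2 genes, Sv2c and Rab3c, where this held for 16.0% of all genes.

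**Figure D2:**
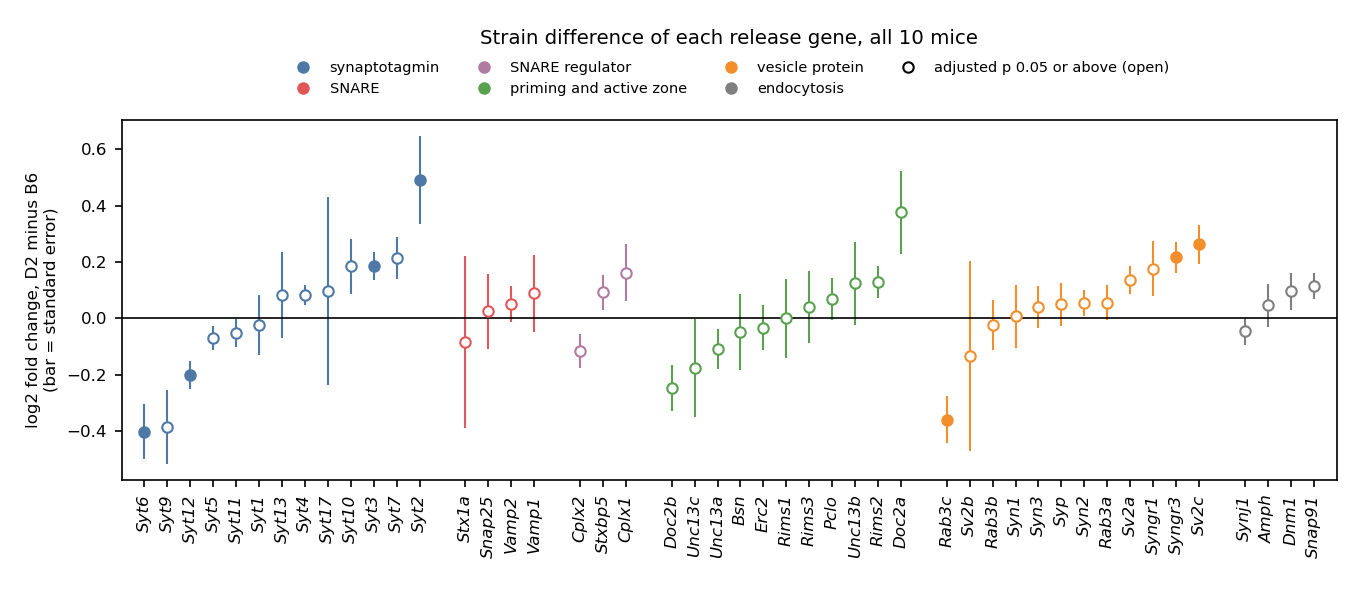
Log2 fold change of D2 against B6 for each gene (vertical axis), with its standard error as a bar, coloured by role and ordered within it. Filled points mark the 7 called genes, 4 of them synaptotagmins and 3 vesicle proteins, and open points mark the other 40.

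The genes called higher in D2 were a pair of synaptotagmins and a pair of vesicle membrane proteins. Sv2c (chr13:96091102-96269085, minus strand; build GRCm39, as for all positions here) encodes the member of the SV2 transporter-like family that is known to be rich in the basal ganglia. It had 293, 287, 237, 303 and 242 CPM in B6 and 333, 309, 335, 309 and 348 CPM in D2. The strains were fully apart, with D2 above B6, and the lowest values were those of B6 replicates 3 and 5 (log2 fold change 0.26, standard error 0.071, adjusted p = 0.0202). Syngr3 (chr17:24904063-24909172, minus strand) encodes synaptogyrin 3, a vesicle protein known to bind the dopamine transporter. It had 130.1, 140.3, 152, 135 and 161 CPM in B6 and 169.8, 162, 169.7, 160.4 and 172 CPM in D2. The groups met at B6 replicate 5, which exceeded D2 replicate 4 (log2 fold change 0.22, standard error 0.054, adjusted p = 0.014). Syt3 (chr7:44022982-44049611, plus strand), whose product is a calcium sensor of high affinity, had 56.96, 59.8, 61.3, 62.3 and 65.8 CPM in B6 and 73.4, 64.3, 73.2, 65.6 and 72.1 CPM in D2. D2 replicates 2 and 4 were below the highest B6 mouse, and the other D2 mice lay above all B6 mice (log2 fold change 0.19, standard error 0.050, adjusted p = 0.019). Syt2 (chr1:134574290-134690331, plus strand), which encodes a fast sensor closely related to Syt1, had the largest fold change of the 47, at 1.41-fold. It had 72.7, 95.4, 66.4, 75.3 and 68.9 CPM in B6 and 144, 79.1, 111, 80.5 and 117 CPM in D2. Its D2 values spread widely, with replicates 2 and 4 below the highest B6 mouse (log2 fold change 0.49, standard error 0.16, adjusted p = 0.0462).

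These 4 calls were not equally stable. Syngr3 kept its call whichever of the 10 mice was removed. Syt3 and Sv2c were each called in 8 of the 10 and were lost without D2 replicate 3 or without D2 replicate 5, with the largest adjusted p at 0.0653 for Syt3 and 0.0547 for Sv2c. Syt2 was called in 3 of the 10, those without B6 replicate 2, D2 replicate 2 or D2 replicate 4, and reached an adjusted p of up to 0.104 in the others. Vamp1, a synaptobrevin that like Syt2 is found in fast-releasing terminals, also peaked in B6 replicate 2 within its strain and in D2 replicate 1. It had 102, 120.0, 87.5, 87.3 and 88.1 CPM in B6 and 142, 85.3, 97.4, 86.0 and 104 CPM in D2. The strains overlapped for Vamp1 (log2 fold change 0.09, standard error 0.14, adjusted p = 0.738).

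The genes called lower in D2 were a pair of synaptotagmins and a Rab3 gene. Rab3c (chr13:110190721-110417530, minus strand) encodes a vesicle-bound GTPase that recruits RIM and other effectors before fusion. It had 513, 460.4, 624, 463 and 614 CPM in B6 and 431, 419, 425, 409 and 400.4 CPM in D2. All D2 mice were below all B6 mice, and the D2 values were close together while B6 replicates 3 and 5 were the highest (log2 fold change -0.36, standard error 0.083, adjusted p = 0.00846, or 0.779 times the B6 level). Syt6 (chr3:103482484-103552885, plus strand), of the subgroup with Syt3 and Syt10 whose products form disulfide-linked dimers, had 156, 138, 114, 153 and 114 CPM in B6 and 102, 95.7, 90.3, 108.5 and 114 CPM in D2. D2 replicate 5 reached the level of B6 replicates 3 and 5, and the other B6 mice were above all D2 mice (log2 fold change -0.40, standard error 0.097, adjusted p = 0.0107). Syt12 (chr19:4495157-4527880, minus strand) encodes a synaptotagmin that does not bind calcium. It had 51.5, 52.9, 46.3, 51.3 and 49.4 CPM in B6 and 43.6, 39.8, 43.9, 43.6 and 48.0 CPM in D2. Only D2 replicate 5 exceeded the lowest B6 mouse (log2 fold change -0.20, standard error 0.050, adjusted p = 0.0138). All 3 kept their call whichever of the 10 mice was removed. Rab3c and Sv2c lie on the same chromosome and changed in opposite directions.

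**Figure D3:**
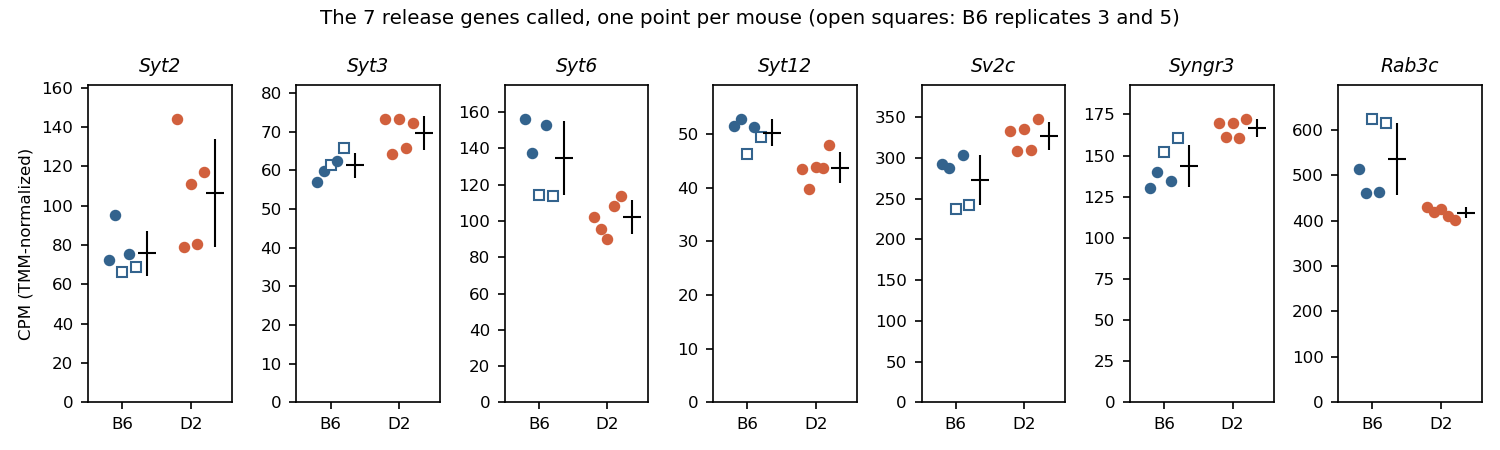
CPM of each called gene (vertical axes from 0) for every mouse, with the strain mean and 1 SD as a cross beside the points, and B6 replicates 3 and 5 as open squares. Rab3c and Sv2c separate the strains completely, and in Syt6 the open squares sit at the level of the highest D2 mouse.

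Reads of genes that overlap on opposite strands can be mixed where counting ignores the strand, and the setting used was not given. Among the called genes, 18.3% of the exon bases of Syt12 overlapped A930001C03Rik, 8.51% of those of Syt6 overlapped the pseudogene Atg4a-ps, 4.75% of those of Syt3 overlapped 1700008O03Rik and 0.299% of those of Sv2c overlapped Gm29543. Exons of Syt2, Syngr3 and Rab3c overlapped no other counted gene. Both strains were aligned to the B6 genome, so that D2 reads with several D2 alleles could be lost, and how far this lowered any of the D2 values was not tested.

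No gene of the core fusion machine was called by edgeR or DESeq2, and 0 of these 7 had an unadjusted p below 0.05 (background 29.4% of all genes). The 4 SNARE genes had log2 fold changes between -0.08 (Stx1a) and 0.09 (Vamp1), and none of the regulators Cplx1, Cplx2 and Stxbp5 was called (0.16, -0.12 and 0.09). Vamp2, the main synaptobrevin, had 773, 778, 971, 818 and 935 CPM in B6 and 858, 895, 905, 908 and 862 CPM in D2. The B6 values enclosed all D2 values (log2 fold change 0.05, standard error 0.064, adjusted p = 0.673). Cplx2 had 1432, 1593, 1727, 1680 and 1690 CPM in B6 and 1439, 1421, 1618, 1436 and 1584 CPM in D2. Its strains overlapped (log2 fold change -0.12, standard error 0.059, adjusted p = 0.223).

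Of the 11 priming and active zone genes, 0 was called by edgeR, and 3 (Rims2, Doc2a and Doc2b) had an unadjusted p below 0.05, close to the background of 29.4%. DESeq2 called 1, Doc2b, which encodes a calcium sensor of high affinity that acts in spontaneous and asynchronous release. In edgeR it stood just outside the threshold (log2 fold change -0.25, standard error 0.081, adjusted p = 0.0515), with 131 ± 17.4 CPM in B6 and 110.3 ± 6.75 CPM in D2 (SD, n = 5). Its paralog Doc2a had a log2 fold change of 0.38 in the other direction (adjusted p = 0.102), and 33.7% of its exon bases overlapped Ino80e on the opposite strand. The Munc13 genes Unc13a, Unc13b and Unc13c had -0.11, 0.12 and -0.18, the RIM genes Rims1, Rims2 and Rims3 0.00, 0.13 and 0.04, and the scaffold genes Bsn, Pclo and Erc2 -0.05, 0.07 and -0.03. Bsn, the gene with the highest level per kb of annotated exon in this role, had 366, 370.1, 572, 399 and 577 CPM in B6 and 398, 436, 506, 459 and 408 CPM in D2. The D2 mice lay inside the range of the B6 mice (log2 fold change -0.05, standard error 0.13, adjusted p = 0.860).

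Among the 9 vesicle protein genes not called, log2 fold changes lay between -0.13 (Sv2b) and 0.18 (Syngr1). Synapsins, which tether vesicles in the reserve pool, had 0.01 for Syn1, 0.05 for Syn2 and 0.04 for Syn3. Rab3a and Rab3b had 0.06 and -0.02, and Sv2a, the binding site of the drug levetiracetam, had 0.14 (adjusted p = 0.0808). Syp had 768, 788, 994, 784 and 984 CPM in B6 and 888, 872, 944, 882 and 885 CPM in D2. B6 replicates 3 and 5 were the highest of all mice for Syp and the other B6 mice the lowest (log2 fold change 0.05, standard error 0.076, adjusted p = 0.732). The 4 endocytosis genes were not called either by edgeR or DESeq2, and 1, Snap91, had an unadjusted p below 0.05, also close to that background. Their log2 fold changes were 0.10 for Dnm1 and -0.05 for Synj1, which acts in the removal of the clathrin coat. Those of the dynamin-binding Amph and the clathrin adaptor gene Snap91 were 0.05 and 0.12. Dnm1 had 821, 830.3, 1001, 842 and 1011 CPM in B6 and 964, 930.1, 1005, 962 and 954 CPM in D2. Its D2 values lay inside the range of the B6 mice (log2 fold change 0.10, standard error 0.064, adjusted p = 0.369).

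The remaining 9 synaptotagmins also did not pass. Syt1, the main sensor for synchronous release, had 1146, 1113, 1605, 1119 and 1572 CPM in B6 and 1237, 1250, 1342, 1377 and 1238 CPM in D2. It was highest in B6 replicates 3 and 5, lowest in the other B6 mice, and intermediate in D2 (log2 fold change -0.02, standard error 0.11, adjusted p = 0.918). Syt7, a slow sensor for asynchronous release, and Syt9, a fast sensor known from striatal and limbic neurons, were near the threshold. Their log2 fold changes were 0.21 (adjusted p = 0.0698) and -0.39 (adjusted p = 0.0599), and DESeq2 called both (adjusted p = 0.0476 and 0.0232). In edgeR without B6 replicates 3 and 5, Syt7 had 0.33 (adjusted p = 0.0018) and Syt9 -0.17 (adjusted p = 0.301). B6 replicates 3 and 5 were the highest B6 mice for Syt9. Syt4 and Syt11, close relatives that bind calcium poorly, had 0.08 and -0.05. The others were Syt5 (-0.07), Syt10 (0.18), Syt13 (0.08) and Syt17 (0.10).

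The spread between mice of 1 strain was itself large for this set. In 41 of the 47 genes the coefficient of variation was larger in B6 than in D2, against 68.5% of the 9997 genes of at least the same level. The median coefficient of variation of the 47 was 13.3% in B6 and 6.32% in D2, and over those 9997 genes it was 5.32% and 4.03%. The genes with the widest spread, picked after their values were seen, were Syt17, Sv2b and Stx1a. Sv2b, another gene of the SV2 family, had 138, 139, 435, 176 and 444 CPM in B6 and 160.3, 279, 284, 277 and 213 CPM in D2. Stx1a, a syntaxin of the cell membrane, had 36.9, 35.8, 100.4, 41.0 and 101 CPM in B6 and 42.6, 70.4, 70.5, 64.0 and 49.6 CPM in D2. Syt17 had 13.96, 13.7, 40.6, 12.6 and 42.9 CPM in B6 and 23.6, 29.8, 26.4, 30.2 and 22.4 CPM in D2. In all 3, B6 replicates 3 and 5 were the highest of the 10 mice, at more than the level of every D2 mouse, and B6 replicates 1 and 2 were below every D2 mouse.

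Within B6 alone, the place of replicates 3 and 5 as the highest mice held across most of the machinery. In 32 of the 47 genes B6 replicates 3 and 5 were the 2 highest B6 mice, where this was so for 28.1% of the 9997 genes, and in 12 they were the 2 lowest (30.3% of the 9997 genes). Syt3, Syt4 and Vamp1 were the 3 exceptions. The 12 with the opposite order were Syt2, Syt5, Syt6, Syt10, Syt12, Unc13c, Rims2, Rims3, Doc2b, Syn2, Syn3 and Sv2c. Unc13c, a Munc13 gene, had 239, 232, 129, 209.8 and 129 CPM in B6 and 203, 155, 167, 143 and 163 CPM in D2. Rims3, which encodes a short RIM protein, had 159, 164, 104, 135 and 101 CPM in B6 and 155, 122, 129.9, 141 and 133 CPM in D2. In both, B6 replicates 3 and 5 fell below every D2 mouse, the reverse of Sv2b. The vesicular GABA transporter gene Slc32a1 had the same order within B6, with 312, 318, 225, 314 and 227 CPM in B6 and 299.8, 227, 261, 261 and 293 CPM in D2. B6 replicates 3 and 5 also had the highest cortical marker levels, as the heat map by mouse shows, and the part of these cells in the order was not tested.

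**Figure D4:**
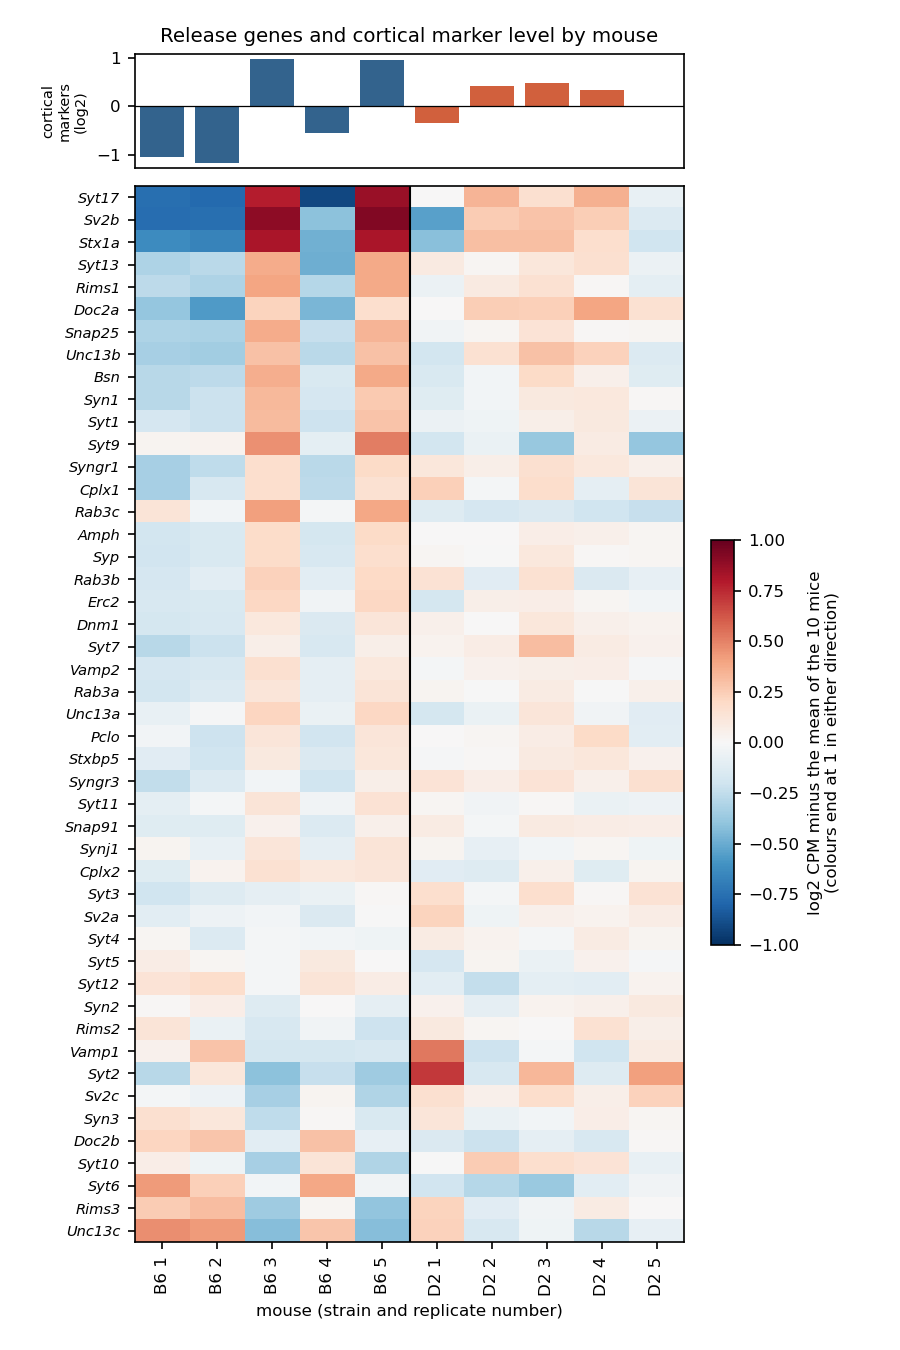
Log2 CPM of each gene minus its mean over the 10 mice (colour, red above and blue below the mean), with genes sorted by the gap between B6 replicates 3 and 5 and the other B6 mice, and above it the cortical marker level relative to its mean. B6 replicates 3 and 5 are redder than the other B6 mice in the rows from Syt17 down to Cplx2 and bluer in the last rows, from Sv2c to Unc13c.

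Since the comparison rests on these mice, it was repeated without B6 replicates 3 and 5, an alternative chosen after the data were seen. With 3 B6 mice against 5 D2 mice, 30 of the 47 genes were called (63.8%), 25 higher and 5 lower in D2, where 19.2% of all genes were called. The cortical marker level of the remaining B6 mice (up to 3.42) then lay below that of all D2 mice (from 3.61), so that strain and marker level cannot be told apart in this fit. Of the 25 genes, 23 were among the 32 whose 2 highest B6 mice were replicates 3 and 5. Leaving these mice out lowers the B6 mean of such genes, so this overlap follows in part from the choice of mice. The largest differences were those of Syt17, with a log2 fold change of 0.98 (adjusted p = 1.4e-05), Sv2b with 0.68 (adjusted p = 0.0108), Doc2a with 0.68 (adjusted p = 6.7e-05) and Stx1a with 0.65 (adjusted p = 0.00703). By role, 3 of 4 SNARE genes (Stx1a, Snap25 and Vamp2), 9 of 12 vesicle protein genes, 7 of 13 synaptotagmins, 6 of 11 priming and active zone genes, 2 of 3 SNARE regulators and 3 of 4 endocytosis genes were called. The sign of 11 genes turned, among them Syt1 at 0.19 (adjusted p = 0.00753) and Bsn at 0.22 (adjusted p = 0.0419).

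When all 10 mice were kept and the cortical marker level was entered as a covariate, 22 of the 47 were called (46.8%), 11 in each direction, where 26.2% of all genes were called. In this fit Stx1a, Sv2b and Bsn were called lower in D2, with log2 fold changes of -0.19 (adjusted p = 0.0106), -0.24 (adjusted p = 0.00072) and -0.13 (adjusted p = 0.0198), and they were called higher without B6 replicates 3 and 5. Since the fits differ in sign, no direction is given for these 3 genes. Unc13a at -0.15 (adjusted p = 0.00917), Cplx2 at -0.14 (adjusted p = 0.0434) and Syt9 at -0.44 (adjusted p = 0.00162) were among the further genes called lower. Rims2 at 0.17 (adjusted p = 0.00732) and Rims3 at 0.17 (adjusted p = 0.00508) were among those called higher. Vamp2, Snap25, Syt1, Syp and Dnm1 were not called in this fit, with log2 fold changes between -0.09 and 0.06. Without B6 replicates 3 and 5, none of Unc13a, Cplx2, Syt9, Rims2 and Rims3 was called, at -0.0015, -0.07, -0.17, 0.05 and -0.16. The sign of Rims3 thus differed between the fits. So did that of Erc2, at -0.09 (called) with the covariate and 0.10 (not called) without B6 replicates 3 and 5. No direction is given for Rims3 and Erc2 either. The same holds for 5 genes called without B6 replicates 3 and 5 that had the opposite sign, not called, with the covariate. These were Syt1 (0.19 and -0.09), Snap25 (0.315 and -0.04), Rims1 (0.31 and -0.08), Syn1 (0.23 and -0.06) and Unc13c (-0.45 and 0.01).

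In all 3 fits 6 genes were called in the same direction. Syt3, Sv2c and Syngr3 were higher and Syt6, Syt12 and Rab3c lower in D2. For Rab3c the log2 fold change was -0.20 (adjusted p = 0.00539) without B6 replicates 3 and 5 and -0.40 (adjusted p = 1.3e-05) with the covariate, and for Syt6 it was -0.55 (adjusted p = 0.00012) and -0.33 (adjusted p = 0.00071). Syngr3 had 0.30 (adjusted p = 0.00013) and 0.19 (adjusted p = 0.00242), Syt3 0.22 (adjusted p = 0.0104) and 0.18 (adjusted p = 0.0116), Syt12 -0.25 (adjusted p = 0.00419) and -0.18 (adjusted p = 0.00585), and Sv2c 0.15 (adjusted p = 0.037) and 0.32 (adjusted p = 3.6e-05). Syt2 was not called without B6 replicates 3 and 5, at 0.39 (adjusted p = 0.155).

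**Figure D5:**
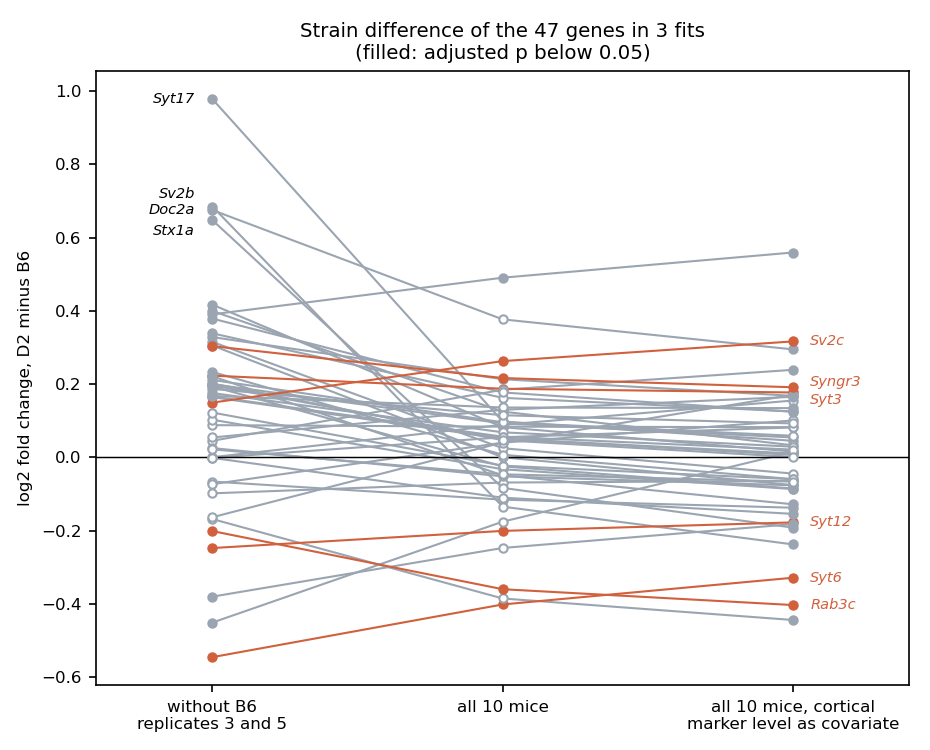
Log2 fold change of D2 against B6 (vertical axis) of each gene in the fit without B6 replicates 3 and 5, in the fit of all 10 mice and in the fit with the cortical marker level as a covariate, joined by lines, with filled points where the adjusted p was below 0.05. The 6 genes in colour were called in all 3 fits, while several grey lines start above 0 on the left and end below 0 on the right.

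Within families, the share of each paralog in the summed level per length was computed per mouse, as a description without a test. Among the Rab3 genes, Rab3c made up 22.1% ± 1.25 in B6 and 17.7% ± 0.497 in D2 (SD, n = 5), and Rab3a 69.8% ± 1.27 and 74.2% ± 0.792, with no overlap between the strains in either. Shares within a family depend on one another, and the level of Rab3a itself overlapped between the strains (log2 fold change 0.06, edgeR adjusted p = 0.617). The sum of the 3 Rab3 genes was 200.2 ± 22.8 and 196 ± 5.64 CPM per kb. The sums differed by less than the spread between mice. Sv2a made up 53.8% ± 3.61 and 53.8% ± 3.07 of the SV2 family, Sv2c 28.6% ± 5.64 and 30.96% ± 1.24, and Sv2b 17.5% ± 8.94 and 15.2% ± 3.53, and all 3 shares overlapped between the strains. The largest synaptotagmin shares were those of Syt1 (24.8% ± 2.91 and 24.5% ± 0.850) and Syt11 (22.2% ± 0.493 and 21.4% ± 0.657). The closeness of Syt1 and Syt11 depends on the length used. Over the 10 mice they had 100.8 and 88.8 CPM per kb of annotated exon. With the longest transcript they had 260.1 and 146.7 CPM per kb. Of this family only the share of Syt7 did not overlap, at 10.1% ± 0.402 in B6 and 11.7% ± 0.801 in D2. Vamp2 made up 95.99% ± 0.898 and 95.9% ± 0.970 of the synaptobrevin pair. Among the complexins the share of Cplx2 was 68.1% ± 2.54 and 63.7% ± 2.00.

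Other genes of vesicle release, docking, filling and endocytosis were listed alongside, and 84 were measured. Of these 7 were called (8.3%, background 18.3%), 4 higher and 3 lower in D2, with a median log2 fold change of 0.02. Syt14, a further synaptotagmin that does not bind calcium, was called higher (log2 fold change 0.25, standard error 0.038, adjusted p = 0.00044), with 35.2 ± 0.980 CPM in B6 and 41.8 ± 1.85 CPM in D2 (SD, n = 5). Erc1, the paralog of Erc2 in the active zone, was higher as well (log2 fold change 0.18, standard error 0.039, adjusted p = 0.00514), as was Rab3gap2, a subunit of the Rab3 regulator (log2 fold change 0.11, standard error 0.034, adjusted p = 0.0421). Syt15 (log2 fold change -0.72, standard error 0.14, adjusted p = 0.00265) and Sypl2 (log2 fold change -0.35, standard error 0.11, adjusted p = 0.0439) were lower. Their levels were 1.01 ± 0.161 CPM in B6 and 0.617 ± 0.0629 CPM in D2 (SD, n = 5) for Syt15 and 1.45 ± 0.162 CPM in B6 and 1.14 ± 0.110 CPM in D2 (SD, n = 5) for Sypl2. Bin1, an amphiphysin relative, was lower as well (log2 fold change -0.20, standard error 0.051, adjusted p = 0.0137), and its call was lost without B6 replicates 3 and 5, at -0.15 (adjusted p = 0.0558), as were those of Sypl2, at -0.28 (adjusted p = 0.150), and of Rab3gap1, the other subunit, at 0.10 (adjusted p = 0.0662). None of the vesicular transporters of glutamate and GABA was called, with log2 fold changes of -0.05 for Slc17a7, 0.22 for Slc17a6 and -0.06 for Slc32a1. Without B6 replicates 3 and 5, Slc17a7 differed by 2.07 (adjusted p = 0.00112) and Slc32a1 by -0.23 (adjusted p = 0.0417).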

How the data were processed

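The libraries were poly-A RNA of the NAc from 5 mice of each strain. The authors trimmed reads with fastp 0.22.0, aligned both strains with STAR 2.7.10b to the Ensembl release 108 genome (GRCm39), sorted them with Samtools 1.6 and counted reads per gene with featureCounts. The table that the authors deposited held these raw counts without normalization, and genes with a median of 0 had been removed from it. The strand setting of the counting is not given in the sources used here. The table's summary columns were not used. Its 10 count columns were matched to mice by the animal number in the labels.

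Symbols, positions and exon lengths came from GENCODE vM39 (GRCm39), a later annotation than the one used for counting, which held 29519 of the 29883 genes. The counts were fitted with edgeR 4.0.16 (TMM, glmQLFit and glmQLFTest, two-sided) in R 4.3.3 over all genes, with the strain as the only factor, no further filter and Benjamini-Hochberg adjustment at 0.05. The standard error is the absolute log2 fold change over the square root of F. Depth was 96977262 to 116776714 counts per library, and p-values measure the spread between mice. Alternatives were DESeq2 1.42.0, its size factors, total counts, upper-quartile factors, filterByExpr, at least 10 counts in every sample, an adjusted p of 0.01, the replicate block, the cortical marker level as a covariate and each mouse left out. Marker lists (74 genes in 10 lists, mean of log2(CPM + 0.1)) were compared by an exact permutation test (two-sided), in which 252 assignments allow no p below 0.0079. The fit was tested on simulated data. The genes and lists were chosen with earlier results of these data known.

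Genes with values for every mouse were set by rule as the called genes and the gene with the highest level per length in each role. Rims3, Stx1a, Sv2b, Syt17, Unc13c and Vamp1 were added after the values were seen. Of the other release genes, the rule named Slc17a7, Slc17a6, Slc32a1 and up to 3 called genes in each direction, and Rab3gap1 was added after the values were seen. Of those listed, Vamp7 was not analysed here. Python 3.11.15, numpy 2.4.6, scipy 1.17.1, pandas 2.3.3 and matplotlib 3.10.9 were used.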

Additional observations from a re-analysis of the deposited data

Results flagged for a closer look

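In 3 cases, a single mouse lay far from the others of its strain, judged by its gap to the nearest mouse as a share of the strain's range, against a limit of 0.71 for 5 mice. Over 114 groups tested (47 genes and 10 marker lists in 2 strains), chance alone gives about 1 in 20, a rate that the 3 cases did not exceed. Syt7 had 447 CPM in D2 replicate 3, where the other D2 mice lay between 371.4 and 382.1 (ratio 0.859). Syp had 944 CPM in the same mouse, against 872.1 to 888.2 (ratio 0.775). Snap91 had 298 CPM in D2 replicate 2, below 316.5 to 321.0 in the others (ratio 0.806). None of these genes was called with all 10 mice.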

How the results depend on the processing

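Of the 7 called genes, all kept their call and direction with DESeq2, its size factors, total counts, upper-quartile factors, filterByExpr, at least 10 counts in every sample and the cortical covariate. Without both B6 replicates 3 and 5, and with the replicate block, 6 of the 7 did, and Syt2 was lost. The replicate numbers did not pair the mice (correlations of deviations between -0.44 and 0.47). With the block 7 genes were called, since Syt7 was gained, and 4 of the other release genes in place of 7 (adjusted p of Syt2 0.0987). The count of 7 (4 higher, 3 lower) became 1 (0 and 1) at an adjusted p of 0.01, 11 (8 and 3) with total counts, 22 (11 and 11) with the covariate, 30 (25 and 5) without B6 replicates 3 and 5, and 10 with DESeq2 (5 lower). Removing single mice gave counts from 4 to 9, with 1 to 5 higher and 3 to 4 lower. The count fell to 4 without D2 replicate 3, and 1 gene was higher without D2 replicate 3 or D2 replicate 5. The 7 other release genes called became 3 at 0.01, 23 with the covariate and 24 without B6 replicates 3 and 5, and between 4 and 7 with a mouse left out, the lowest without B6 replicate 5. Without both B6 replicates 3 and 5, genes that were not called with all 10 mice turned in sign and were called, with log2 fold changes of 0.19 (Syt1), 0.65 (Stx1a), 0.22 (Bsn) and 0.68 (Sv2b). The 3 marker lists that differed became 0 with any mouse left out, where 126 assignments allow no p below 0.0159 and 3 lists at it adjust to 0.0529, and also 0 without B6 replicates 3 and 5. With the length of the longest transcript, Syt1 moved from 100.8 to 260.1 CPM per kb, Vamp2 to 284.3, Syp to 309.2 and Dnm1 to 147.8. The highest gene of the priming and active zone role was then Unc13a (41.4) in place of Bsn (28.1), while those of the other 5 roles were as before, and the lowest of the 47 was Syt10 (2.19) in place of Syn3 (2.66). The lowest count of these genes was 924 reads.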

Other observations

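The other marker lists are given as mean log2 levels per mouse with two-sided exact permutation tests over mice, adjusted over 10 lists. Blood markers lay between 3.19 and 3.70 in B6 and between 1.58 and 2.33 in D2 (adjusted p = 0.0265). By gene, 3 of 5 were called lower in D2 (background 9.83% of all genes). Oligodendrocyte markers lay between 8.64 and 9.11 in B6 and between 8.20 and 8.74 in D2 (adjusted p = 0.0992), with 4 of 6 called lower (the same background). Endothelial markers lay between 4.69 and 5.02 in B6 and between 4.42 and 4.83 in D2 (adjusted p = 0.175), astrocyte markers between 6.55 and 6.64 in B6 and between 6.47 and 6.66 in D2 (adjusted p = 0.857) and microglial markers between 4.80 and 4.94 in B6 and between 4.64 and 4.92 in D2 (adjusted p = 0.533). Markers of subcortical glutamate and septal neurons lay between 3.70 and 4.05 in B6 and between 3.85 and 4.18 in D2 (adjusted p = 0.225). Those of choroid plexus and ependyma lay between 0.637 and 1.14 in B6 and between 0.594 and 1.24 in D2 (adjusted p = 0.661). The part of these cells in the levels of the release genes was not tested.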
